A study of Mus musculus with 6 samples.

Results

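The 6 actin isoforms of the mouse, *Actb*, *Actg1*, *Acta2*, *Actg2*, *Acta1* and *Actc1*, were followed through the loss of *Rnf40* in mouse embryo fibroblasts (MEFs). They were taken by gene symbol from a table of 29955 genes, in which all 6 were present. RNA-seq libraries were available from 3 *Rnf40*+/+ and 3 *Rnf40*-/- samples. The MEFs were primary cells isolated from embryos that carried Rosa26-CreERT2, a Cre recombinase expressed in all cells and switched on by tamoxifen, and *Rnf40* alleles with loxP sites around exons 3 and 4. *Rnf40* encodes a subunit of the RNF20/RNF40 ubiquitin ligase, which places monoubiquitin on histone H2B. For deletion, cells were passaged with 250 nM 4-hydroxytamoxifen (4-OHT) for 5 days and grown for 3 more days without it, and RNA was taken at passage 3. The sources used here do not state whether the *Rnf40*+/+ samples of the RNA-seq received 4-OHT, so the deletion and the treatment cannot be told apart. Nor do they say that the samples of a genotype came from separate embryos or cultures, so the p-values measure only the spread between these samples, which may be technical.

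Actins are the subunits of the thin filaments that give a cell its shape and pull within its contractile machinery. *Actb* (β-actin) and *Actg1* (γ-actin) are the cytoplasmic isoforms and are found in nearly every cell. *Acta2* and *Actg2* are the α and γ isoforms of smooth muscle, and *Acta1* and *Actc1* are the isoforms of skeletal and cardiac muscle. Fibroblasts can add *Acta2* to their cytoplasmic actins when they become contractile. Many actin genes are driven by serum response factor (SRF), a transcription factor that binds the CArG box and works with the cofactors MRTF-A, MRTF-B (*Mkl1*, *Mkl2*) and myocardin (*Myocd*). MRTFs are held back by unpolymerized actin, so that the state of the actin pool feeds into the transcription of actin genes.

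All 6 genes lie on the minus strand in mm9. *Actb* lies at chr5:143664794-143668433 and *Actg1* at chr11:120207004-120209856. *Acta2* lies at chr19:34315580-34329826 and *Actg2* at chr6:83462899-83486259. *Acta1* lies at chr8:126415669-126418651 and *Actc1* at chr2:113873018-113879284. The annotation places a longer gene model on the opposite strand across *Acta1* and a lincRNA on the opposite strand across *Actc1*. The library kit marked strand, but the sources do not state whether the counting used it.

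The 250 bases before the annotated transcription start were available from RefSeq for 4 of the 6 genes, in build GRCm38.p6. They are printed 5′ to 3′ with the CArG boxes found in them. Capitals mark CArG boxes, which are CC, then 6 bases that are A or T, then GG. A match with at most 1 C or G among the 6 central bases is also in capitals, a relaxation chosen after the sequences had been seen. The stretches lie at chr11:120348496-120348745 for *Actg1*, chr19:34255374-34255623 for *Acta2*, chr8:123894776-123895025 for *Acta1* and chr2:114052876-114053125 for *Actc1*, each on the minus strand.
Actg1: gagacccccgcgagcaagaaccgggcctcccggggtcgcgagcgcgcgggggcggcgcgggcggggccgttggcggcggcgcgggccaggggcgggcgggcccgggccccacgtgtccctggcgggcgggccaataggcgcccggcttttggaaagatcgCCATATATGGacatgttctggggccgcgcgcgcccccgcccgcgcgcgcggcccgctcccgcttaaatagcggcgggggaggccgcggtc
Acta2: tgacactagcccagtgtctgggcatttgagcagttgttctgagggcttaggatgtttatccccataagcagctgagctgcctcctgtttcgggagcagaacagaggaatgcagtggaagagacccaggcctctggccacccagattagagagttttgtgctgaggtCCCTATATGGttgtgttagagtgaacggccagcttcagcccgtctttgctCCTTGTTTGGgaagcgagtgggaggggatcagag
Acta1: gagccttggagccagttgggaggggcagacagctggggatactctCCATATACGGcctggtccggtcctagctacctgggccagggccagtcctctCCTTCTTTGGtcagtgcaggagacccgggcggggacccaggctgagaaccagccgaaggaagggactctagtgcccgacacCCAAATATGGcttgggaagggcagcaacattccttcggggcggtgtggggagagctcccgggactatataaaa
Actc1: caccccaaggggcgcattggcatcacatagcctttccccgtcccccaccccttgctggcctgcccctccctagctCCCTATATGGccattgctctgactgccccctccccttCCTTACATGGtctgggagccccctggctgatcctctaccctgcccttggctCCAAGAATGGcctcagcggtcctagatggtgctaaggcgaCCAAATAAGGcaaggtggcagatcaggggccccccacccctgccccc

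An exact CArG box was present in 3 of these 4 sequences, against 1.47% of 32851 promoters of the same length. Counted from the annotated start, it lay at bases -90 to -81 in *Actg1*, at -73 to -64 in *Acta1* and at -47 to -38 in *Actc1*. Whether transcription in MEFs begins at the annotated starts was not tested, so these places cannot be compared between genes. *Acta2* held no exact match in this window and 2 relaxed ones, at -84 to -75 and at -34 to -25. Counting exact and relaxed matches together, *Actg1* held 1, *Acta2* 2, *Acta1* 3 and *Actc1* 4, and 8.59% of all promoters held at least 1. The relaxed rule was chosen after the sequences had been seen, and *Actb* and *Actg2* had no sequence. These counts therefore do not compare cytoplasmic with muscle actin genes. The MCAT core, CATTCC, which is bound by TEAD factors, was found on either strand of *Acta1* and *Acta2*, once in each, and in 12.6% of all promoters. The E-box CANNTG, the site of basic helix-loop-helix factors, was matched 3 times in *Acta2*, 2 times in *Acta1* and 1 time in *Actg1*, and was present in 66.2% of all promoters. No 2 of these motifs overlapped.

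**Figure D1:**
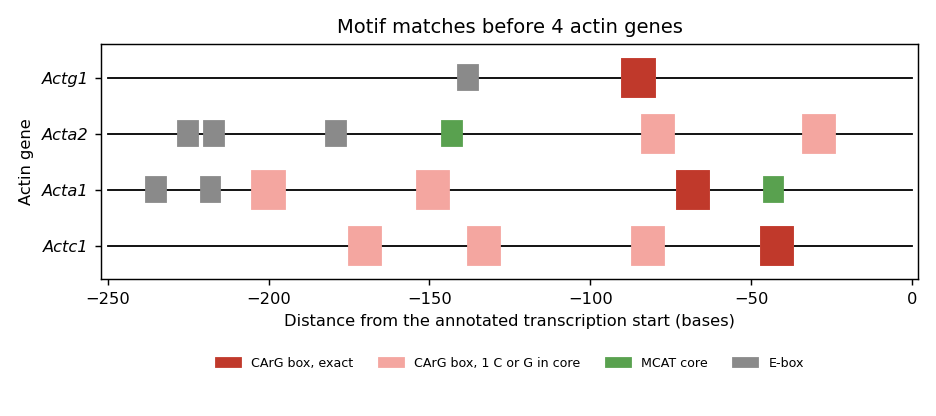
Matches of the CArG box (exact in red, with 1 C or G in the core in pink), the MCAT core (green) and the E-box (grey) on the 250 bases before the annotated start of 4 actin genes, with the distance from the start in bases on the x axis. Counting exact and relaxed matches, *Actg1* has 1 and *Actc1* has 4, and each has 1 exact match.

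The isoforms resemble each other, which matters for how reads are divided between them. Identity of the coding sequences ran from 81.5% to 88.7%, highest between *Actb* and *Actg1* and next between *Acta1* and *Actc1*, at 86.2%. Of all windows of 50 bases along an mRNA, at most 2.57% (in *Actb*) were found without mismatch in another actin, and with up to 2 mismatches the share rose to between 2.08% (*Acta2*) and 10.5% (*Actb*). For *Acta1* the shared windows did not follow the order of coding identity. With up to 2 mismatches, 6.73% of its windows were found in *Actb*, which was far more abundant, and 3.15% in *Actc1*. Whether reads of *Actb* added to the values of *Acta1* was not tested. None of the windows within a 3′ UTR was shared, even with 2 mismatches. The sources give no read length for these libraries and do not say how reads that fit several genes were counted, so values of single isoforms carry that uncertainty. *Actb* and *Actg1* also have processed pseudogenes, with which reads could have been shared.

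The libraries held between 17053436 and 26344170 reads on genes. A deposited value is a number of reads scaled by the library's size factor, here called a normalized count. A gene with 3 reads stood at 2.40 to 3.58 normalized counts, depending on the library. *Rnf40* itself, counted over the whole gene and not only over the floxed exons, was at 1278, 1195 and 1096 normalized counts in *Rnf40*+/+ and at 439, 519 and 487 in *Rnf40*-/- libraries. It fell by 1.30 on the log2 scale (SE 0.089, limma adjusted p = 4.25e-07), to 40.5% of its *Rnf40*+/+ mean. *Rnf40*+/+ replicate 1 stood apart from the other libraries. In it, 40 genes reached at least 50 normalized counts and at least 10 times the highest value of any other library, whereas no gene did so in any of the other 5. The 40 include *Actc1* and the actin-like gene *Actbl2*, at 111 normalized counts against at most 1.04 elsewhere. Of the rest, 9 are *H2* genes of the major histocompatibility complex, such as *H2-B2* (1115 against at most 69.3), and others include *Kcnma1* (797 against at most 47.2) and *Col13a1* (284 against at most 7.31). Several are relatives of abundant genes. *D1Pas1* stood at 117 against at most 1.04 and the Y-linked *Ddx3y* at 81.2 against at most 7.14, while their relative *Ddx3x* stood at 8665 against 7132 to 8344. *Usp9y* stood at 59.7 and was at 0 in the other 5 libraries, while *Usp9x* stood at 5115 against 4549 to 6461. *Xist*, which is made from the inactive X chromosome, was between 7178 and 9616 in all 6 libraries. The part of these values in the levels of *Acta1* and *Actc1* below was not tested, and both genes are given with and without that library.

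The comparison asked which actin transcripts depend on *Rnf40* in MEFs. Every isoform that could be tested was lower in *Rnf40*-/- MEFs, and less was left of each tested muscle isoform than of either cytoplasmic one. *Actg2* was left at 6.99% of its *Rnf40*+/+ level, *Acta1* at 16.4%, *Acta2* at 19.8%, *Actg1* at 54.9% and *Actb* at 73.2%. Of the 6 genes, 5 passed the filter on low counts, all 5 were lower at an adjusted p under 0.05 and none was higher, while 24.1% of the 16378 genes tested were lower by the same rule, 23.3% were higher and 47.4% were called in either direction. The adjusted p-values came from limma on log2(normalized count + 1), fitted to all genes, and log2 fold changes below are on that scale. In 28.7% of the genes tested, every *Rnf40*-/- library was below every *Rnf40*+/+ library, and this held for all 5 tested actins. It also held for *Actc1*, which is outside that share and had few reads in most libraries. A log2 fold change below -2 at an adjusted p under 0.05 was seen in 1.12% of genes, and *Actg2*, *Acta1* and *Acta2* were among them. Because these are bulk samples, fewer cells of a type and less RNA per cell cannot be told apart.

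**Figure D2:**
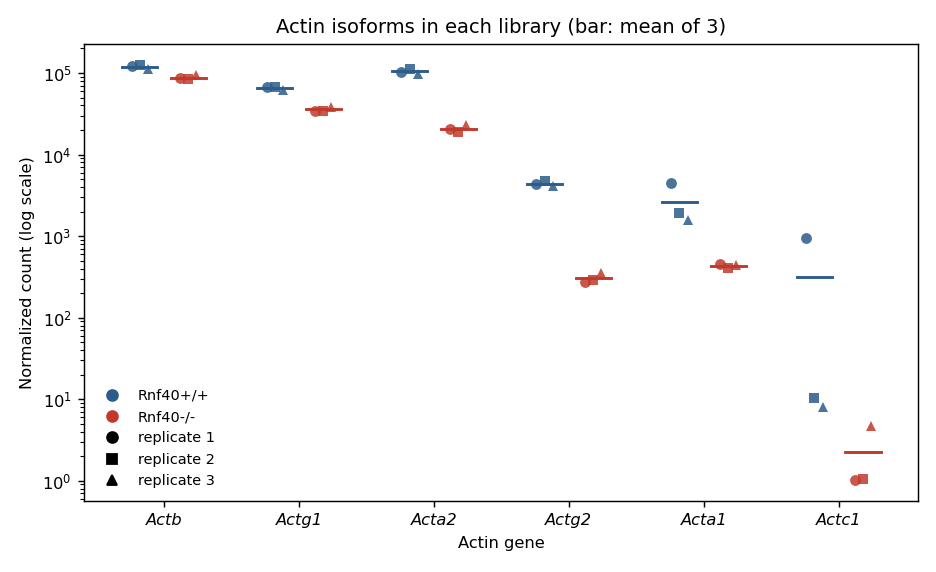
Normalized counts of the 6 actin genes in each library on a log scale, with *Rnf40*+/+ in blue, *Rnf40*-/- in red, marker shapes for replicate numbers and bars for the mean of 3. Blue and red points do not overlap for any gene, and *Rnf40*+/+ replicate 1 lies above its group for *Acta1* and *Actc1*.

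Of the cytoplasmic pair, *Actb* was at 122623, 126279 and 111497 normalized counts in *Rnf40*+/+ and at 85920.04, 83573 and 94225 in *Rnf40*-/- libraries. The means were 120133 ± 7699 and 87906 ± 5597 (SD, n = 3), and the highest *Rnf40*-/- library stayed below the lowest *Rnf40*+/+ one. The log2 fold change of *Actb* was -0.45 (SE 0.096, limma adjusted p = 0.00222), the smallest fall among the tested actins, and 20.2% of all genes tested fell further.

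*Actg1* was at 67251, 66987 and 61072 normalized counts in *Rnf40*+/+ and at 34600.3, 34225 and 38305 in *Rnf40*-/- libraries. The groups were far apart relative to their spread, with means of 65103 ± 3494 and 35710.2 ± 2255 (SD, n = 3). Its log2 fold change was -0.87 (SE 0.083, limma adjusted p = 5.89e-06), and 8.05% of genes fell further.

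Among the smooth muscle isoforms, *Acta2*, the marker of contractile fibroblasts, was at 104226, 110760.2 and 98613 normalized counts in *Rnf40*+/+ and at 20447, 18682 and 22852 in *Rnf40*-/- libraries. It was thus close to but below *Actb* within each *Rnf40*+/+ library, and every *Rnf40*-/- library was far lower. The log2 fold change was -2.34 (SE 0.092, limma adjusted p = 7.63e-09), a fall from 104533 ± 6079.5 to 20661 ± 2093 (SD, n = 3).

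*Actg2* was at 4326, 4744 and 4119 normalized counts in *Rnf40*+/+ and at 276, 290.1 and 355 in *Rnf40*-/- libraries. Its mean went from 4396 ± 318 to 307 ± 42.0 (SD, n = 3), which is 14.3-fold lower. With a log2 fold change of -3.84 (SE 0.097, limma adjusted p = 3.5e-10), *Actg2* ranked number 5 of the 16378 genes by size of the fall.

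Of the striated muscle isoforms, *Acta1* was at 4449, 1905 and 1592 normalized counts in *Rnf40*+/+ and at 453, 409 and 439.99 in *Rnf40*-/- libraries. *Rnf40*+/+ replicate 1 held 2.54 times the mean of its 2 partners, whereas for *Actb*, *Actg1*, *Acta2* and *Actg2* this ratio was between 0.976 and 1.05. With all libraries the log2 fold change of *Acta1* was -2.45 (SE 0.27, limma adjusted p = 1.91e-05). Without *Rnf40*+/+ replicate 1 it was -2.003 (SE 0.099, limma adjusted p = 9.55e-09), and 24.8% of the *Rnf40*+/+ level was left. The fall of *Acta1* was therefore larger than the spread between libraries either way, but its size rested in part on that library.

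*Actc1* was read 785, 10 and 10 times in *Rnf40*+/+ and 1, 1 and 5 times in *Rnf40*-/- libraries. This corresponds to 937, 10.2 and 7.99 normalized counts against 1.02, 1.04 and 4.72. *Actc1* was thus read at most 10 times in 5 of the 6 libraries and was high in 1, where it was at 103 times the mean of the other *Rnf40*+/+ libraries. It did not pass the filter on low counts and was not tested in the main fit. A log2 difference is given for *Actc1* only among the alternatives to the processing below.

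**Figure D3:**
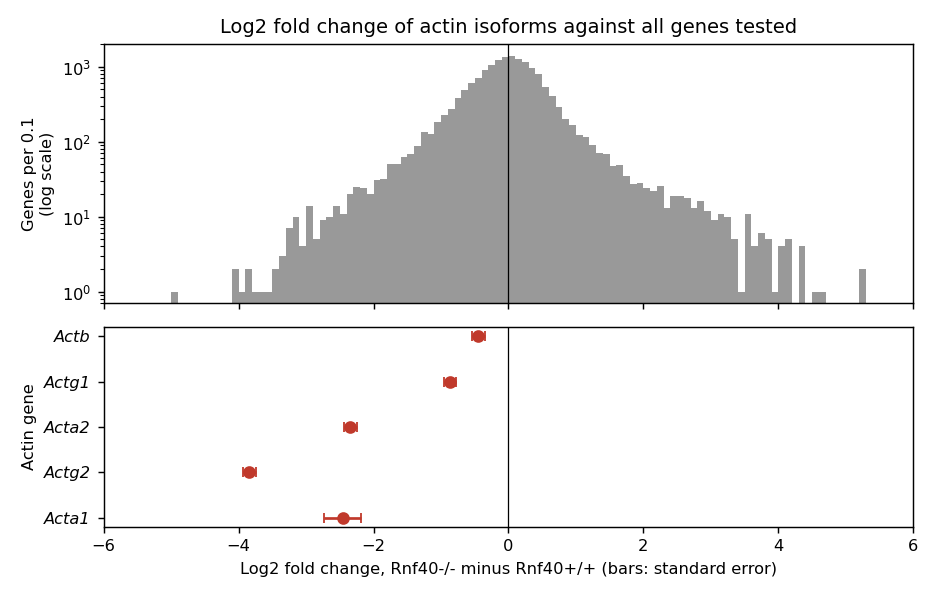
Upper panel, number of genes per 0.1 of log2 fold change (*Rnf40*-/- minus *Rnf40*+/+) for the 16378 genes tested, on a log scale. Lower panel, the log2 fold changes of the 5 tested actins with their standard errors on the same x axis, from -0.45 for *Actb* to -3.84 for *Actg2*.

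Because the most abundant isoforms also fell, total actin mRNA fell. Summed over the 6 genes, actin took 1.32% to 1.49% of all reads on genes in *Rnf40*+/+ and 0.726% to 0.807% in *Rnf40*-/- libraries. In normalized counts the sum went from 297132 ± 17855 to 145020.2 ± 9927 (SD, n = 3), so that 48.8% was left. The cytoplasmic pair together kept 66.7% (log2 difference -0.58) and the 4 muscle isoforms together kept 19.1% (log2 difference -2.39). For each of these 3 sums the groups did not overlap, and the 2-sided exact permutation test gave p = 0.1, the smallest value that 3 against 3 libraries allow. These sums do not depend on how reads were split between isoforms within them. The cytoplasmic and muscle sums can still depend on reads shared between the classes. Every sum can depend on reads shared with pseudogenes, or left out because they fit several genes.

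To compare levels between genes, normalized counts were divided by the length of the longest annotated mRNA in kilobases. Per kilobase, *Actb* (58071 to 65770.3) and *Acta2* (55369 to 62189.9) overlapped at the top in *Rnf40*+/+ MEFs, followed by *Actg1* (31287 to 34452) and at a distance by *Actg2* (3090.03 to 3559). *Acta1* (1101 to 3076) came next and just below the lowest *Actg2* library, and *Actc1* (5.42 to 636) was last. In *Rnf40*-/- MEFs the order was *Actb* (43528 to 49075), *Actg1* (17533 to 19623), *Acta2* (10489.8 to 12831), *Acta1* (283 to 313), *Actg2* (207 to 266) and *Actc1* (0.692 to 3.21), with no overlap between neighbours. *Acta2* thus went from just below *Actb* within each *Rnf40*+/+ library to below *Actg1*, and *Actg2* went from above to below *Acta1*. The order of the latter pair depended on length in *Rnf40*+/+ replicate 1, where *Acta1* had 4449 normalized counts and *Actg2* 4326.

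As a share of the actin pool per kilobase, *Acta2* went from 36.7% ± 0.845 in *Rnf40*+/+ to 15.2% ± 0.566 in *Rnf40*-/- MEFs (SD, n = 3). *Actb* rose as a share from 39.1% ± 0.204 to 60.1% ± 0.320 and *Actg1* from 20.9% ± 0.284 to 24.0% ± 0.284, although the level of each was lower. The share of *Actg2* went from 2.06% ± 0.0748 to 0.302% ± 0.0230. *Acta1* made up 1.88%, 0.788% and 0.739% in *Rnf40*+/+ replicates 1 to 3, and 0.420%, 0.393% and 0.371% in the *Rnf40*-/- ones. The 2-sided exact permutation test gave p = 0.1 for each of these 5 shares, the smallest possible, and 0.12 after Benjamini-Hochberg adjustment over the 6 isoforms. For *Actc1* the share was 0.389% in *Rnf40*+/+ replicate 1 and at most 0.00414% in every other library (exact permutation p = 0.2). The 6 shares sum to 100% in each library and are not independent of each other.

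**Figure D4:**
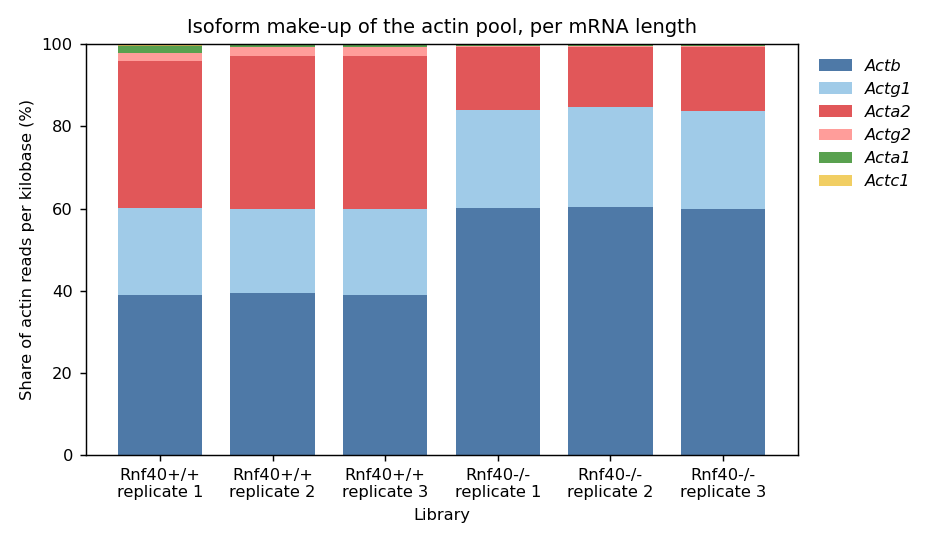
Share of each isoform in the summed actin reads per kilobase, in percent, as stacked bars for the 6 libraries. *Acta2* takes 35.7% to 37.2% in *Rnf40*+/+ and 14.6% to 15.6% in *Rnf40*-/- libraries, and *Actb* 39.0% to 39.4% and 59.8% to 60.4%.

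Ratios within a class were compared next. The log2 ratio of *Acta2* over *Actg2* was 4.57 ± 0.024 in *Rnf40*+/+ and 6.08 ± 0.12 in *Rnf40*-/- MEFs (SD, n = 3), a difference of 1.50. For *Actb* over *Actg1* it was 0.88 ± 0.027 and 1.30 ± 0.012, a difference of 0.42. Neither ratio overlapped between genotypes, and the exact permutation p was 0.1 for both, or 0.15 after adjustment over 3 ratios. The ratio of *Acta1* over *Actc1* differed by 2.17 on the log2 scale (exact permutation p = 0.4) and by 0.39 without *Rnf40*+/+ replicate 1.

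Of SRF and its 3 cofactors, 1 gene fell, 1 rose and 2 were not called, which is 25% in either direction beside 24.1% and 23.3% of all genes tested. *Srf* fell from 1651 ± 19.4 to 1108 ± 18.5 normalized counts (SD, n = 3), with a log2 fold change of -0.58 (limma adjusted p = 1.67e-05). *Mkl2* (MRTF-B) rose by 0.43 on the log2 scale (limma adjusted p = 0.000257). *Mkl1* (MRTF-A) had a log2 fold change of -0.18 (limma adjusted p = 0.0576). *Myocd* stood at 11.7 ± 5.35 and 23.5 ± 11.2 normalized counts, with overlapping groups (limma adjusted p = 0.120).

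Cytoskeletal genes known as SRF/MRTF targets, other than the actins, were mostly lower. Of 22 tested, 19 fell, none rose and 3 were not called, with a median log2 fold change of -0.753 against -0.004 over all genes tested. This is 86.4% lower, beside 24.1% of all genes tested. *Cnn1* (calponin 1, an actin-binding protein of smooth muscle) fell from 4423 ± 514 to 276 ± 11.7 normalized counts, with a log2 fold change of -3.99 (limma adjusted p = 2.2e-10). *Myl9* (a regulatory light chain of smooth muscle and non-muscle myosin) had a log2 fold change of -3.84 and *Tagln* (transgelin) one of -3.10, at limma adjusted p-values of 6.47e-10 and 3.5e-10. The list thus spanned the range of the muscle actins and of the cytoplasmic ones. Its members *Actn1*, *Ctgf* and *Cyr61* were not called, with log2 fold changes of -0.04, -0.03 and 0.10.

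Proteins that bind actin monomers and turn filaments over were lower for 18 of 29 genes tested, higher for 3 and not called for 8, with a median of -0.341. This is 62.1% lower and 10.3% higher, beside 24.1% and 23.3% of all genes tested. The 3 that rose were *Capza2*, *Dstn* and *Coro1c*, by 0.36, 0.27 and 0.20 on the log2 scale. *Cotl1*, a coactosin-like filament-binding protein, had a log2 fold change of -1.42 (limma adjusted p = 0.00162), *Coro1a* (coronin 1A) one of -1.29 and *Tmsb10* (thymosin β10, which sequesters monomers) one of -1.26. *Tmsb10* ranged from 7480 to 13640 normalized counts in *Rnf40*+/+ and from 3808 to 4761 in *Rnf40*-/- libraries. *Cotl1* and *Coro1a* were at 323 ± 192 and 123 ± 67.9 normalized counts in *Rnf40*+/+ MEFs, a wide spread, and both are abundant in leukocytes. Of 8 macrophage and blood markers tested, *Lyz2* and *Tyrobp* were lower and *Ptprc* and *Cd14* higher, which is 25% in either direction. The summed level of the 8 was 5560.4 to 9476 in *Rnf40*+/+ and 3570.3 to 3943 in *Rnf40*-/- libraries, mostly from *Lyz2*. The part of such cells in these values was not tested.

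Of 35 nucleators and elongators of filaments, 6 were lower, 13 higher and 16 not called, which is 17.1% lower and 37.1% higher beside 24.1% and 23.3% of all genes tested. Their median was 0.036, and -0.03 without *Rnf40*+/+ replicate 2. *Lmod1* (leiomodin 1, the nucleator of smooth muscle) stood out from this list with a log2 fold change of -2.77 (limma adjusted p = 6.09e-09). *Vasp*, which elongates filaments at the cell front, had a log2 fold change of -1.01 (limma adjusted p = 1.46e-07), and the formin *Fmn2* rose by 1.07 (limma adjusted p = 0.0215) from a low level of 27.4 ± 15.6 to 53.6 ± 6.17 normalized counts.

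Genes that fold and modify new actin were higher for 8 of 18, lower for 3 and not called for 7, with a median of 0.116. This is 44.4% higher and 16.7% lower, beside 23.3% and 24.1% of all genes tested. *Cct7*, a subunit of the chaperonin that folds actin, rose by 0.47 on the log2 scale (limma adjusted p = 0.000202). *Setd3*, the methyltransferase of an actin histidine, rose by 0.33 (limma adjusted p = 0.0056), and *Pdcl3*, a cofactor of the chaperonin, had a log2 fold change of -0.42 (limma adjusted p = 0.000333). The other genes of this list that fell were *Tcp1* (-0.21) and *Pdcd5* (-0.29). Without *Rnf40*-/- replicate 1, 1 gene of this list was lower and 5 were higher, and without *Rnf40*-/- replicate 2, 1 was lower. Of 8 more distant members of the actin family tested, *Actr1b* and *Actr8* had log2 fold changes of -0.20 and -0.25 and *Actr10* one of 0.17, at limma adjusted p-values of 0.0231, 0.0403 and 0.0468, and the other 5 were not called. This is 25% lower and 12.5% higher, near or below the 24.1% and 23.3% of all genes tested. Leaving out any 1 library left at most 1 of these genes lower and at most 1 higher.

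**Figure D5:**
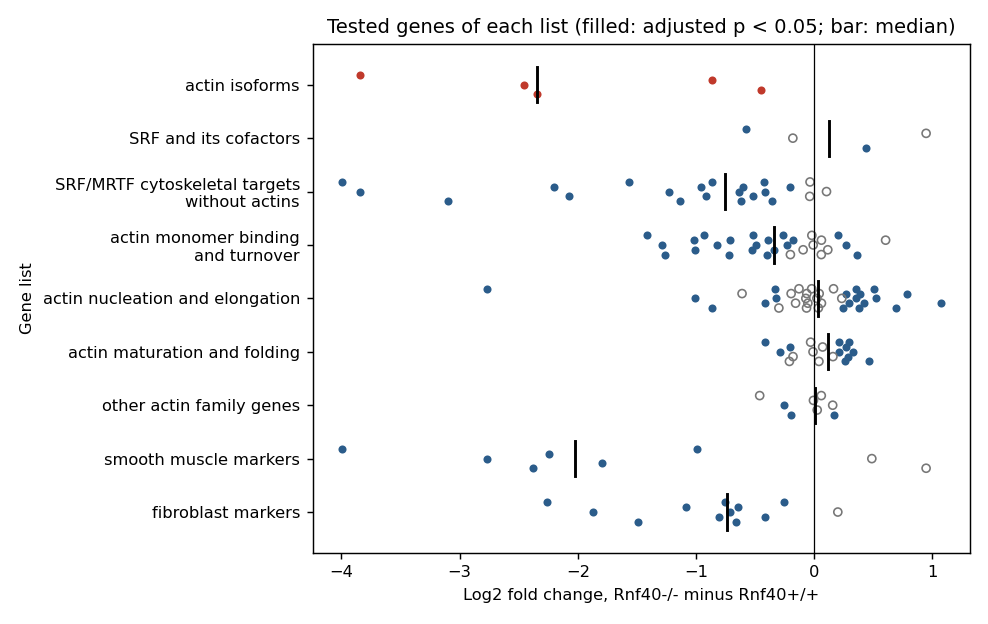
Log2 fold change (*Rnf40*-/- minus *Rnf40*+/+) of each tested gene by list, with filled points for an adjusted p under 0.05, open points for genes not called and bars for the median. The actin isoforms have a median of -2.34, the SRF/MRTF targets of -0.753 and the smooth muscle markers of -2.02, whereas the nucleation list is centred at 0.036.

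Of the marker lists, those of smooth muscle, of cardiac muscle and of fibroblasts were mostly lower, as the muscle actins were. The others were not, and the cardiac list rested on 5 tested genes at low levels. Shares of each list are given in parentheses, to be read beside 24.1% lower and 23.3% higher of all genes tested. Of 8 smooth muscle markers, 6 fell (75%) and *Myocd* and *Synm* were not called, with a median of -2.021. The summed level of the 8 was 8058 to 9605 normalized counts in *Rnf40*+/+ and 1266 to 1425 in *Rnf40*-/- libraries. The most abundant were *Cnn1*, *Lmod1* and *Smtn*. *Cnn1*, *Lmod1* and *Myocd* are also in the lists above, and so counted there too. Of 12 fibroblast markers, 11 fell (91.7%) and *Dcn* was not called, with a median of -0.734 and sums of 778382 to 854501 against 471176 to 473671. The most abundant of these were *Fn1*, *Col1a2* and *Col1a1*, which were expressed in both genotypes. The skeletal muscle regulator *Myod1* was at 0 in every library, and 4 of the 12 skeletal markers passed the filter. Of these *Des* fell (25%), which is also among the smooth muscle markers that fell, and none rose. Of 10 cardiac markers 5 passed the filter, *Nppb*, *Tnni3* and *Ryr2* fell (60%) and none rose. The summed level of the cardiac list was 267 to 314 and 193 to 238 normalized counts. Of 5 endothelial markers tested *Pecam1*, *Cdh5* and *Kdr* rose (60%) and *Emcn* fell (20%), at summed levels of 149 to 284 and 237 to 339. Of 4 epithelial markers *Cldn4* rose (25%) and none fell, at sums of 40.8 to 109.9 and 59.5 to 83.6. Whether a change in the make-up of the cultures had a part in the fall of the actins was not tested.

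The genes whose values followed those of an isoform most closely were searched among 13044 genes, by distance over the 6 libraries between log2 values taken relative to the *Rnf40*+/+ mean. They are a description, with no test. For *Actg2* they were *Myl9* (distance 0.284, log2 fold change -3.84), *Cnn1* (0.353) and *Pbk* (0.538). For *Acta2* they were the uncharacterized *4930429B21Rik* (0.127, log2 fold change -2.36), *Myh11* (0.245, smooth muscle myosin heavy chain) and *Tpm2* (0.256, β-tropomyosin). For *Acta1* the nearest gene was *Des* (0.561), the intermediate filament gene of muscle, which like *Acta1* was highest in *Rnf40*+/+ replicate 1, followed by *Mcm5* (0.786) and *Mcm3* (0.864). *Actg1* was closest to *Fkbp1a* (0.0873), *Sqstm1* (0.0967) and *Hoxb7* (0.101), and *Actb* to *Ptplb* (0.0794), *Etv5* (0.0911) and *Bckdk* (0.0913), whose log2 fold changes lay between -0.46 and -0.42.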

How the data were processed

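Total RNA of 3 *Rnf40*+/+ and 3 *Rnf40*-/- MEF samples was sequenced with a directional kit. Per the labels and methods, the authors mapped reads to the mouse transcriptome (mm9) and normalized with DESeq, and the submitters' processing notes name Bowtie2 (version 2.1.0) and DESeq (version 1.14.0). RNA-seq read length, the counting tool and the treatment of reads that fit several genes are not given in the sources used here. The authors' table thus holds a signal per gene, the reads over the library's size factor. Reads were recovered from the step of each library, and 100% of values came out whole within 0.001. Depth was 17053436 to 26344170 reads. The precision of low genes is limited by counting error, for which 3 reads were taken as the limit, covering counting error only.

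Samples were grouped by the labels. Low genes were removed by edgeR's filterByExpr (version 4.0.16), and the rest were tested with limma (version 3.58.1, trend) on log2(normalized count + 1), with a model of genotype alone and p-values adjusted by Benjamini-Hochberg over 16378 genes. On the recovered reads, the edgeR quasi-likelihood test called 3940 genes lower and 3857 higher. DESeq2 (version 1.42.0), other normalizations, filters and pseudocounts, a replicate block and leaving out each library were alternatives. Shares, sums and ratios were tested with exact permutation over libraries, which cannot go below p = 0.1. The limma, edgeR and DESeq2 fits were tested on simulated data, in which far fewer genes were changed than were called here. Same-numbered samples did not deviate together, so numbers pair nothing. The isoforms, gene lists and rules were chosen with earlier results of these data known. The genes named are the isoforms, *Rnf40*, the SRF cofactors, from every other actin list up to 3 called genes with the largest change (all where 5 or fewer were called), up to 3 of the highest markers of a list, and the 3 genes nearest to each tested isoform. Genes that stood apart in *Rnf40*+/+ replicate 1 and members of short counts outside this rule were named after their values had been seen. mRNA positions and lengths came from GENCODE vM1 (mm9) and promoter sequences from RefSeq (GRCm38.p6), and the 2 builds were not mixed.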

Additional observations from a re-analysis of the deposited data

How the results depend on the processing

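The 5 tested actins and *Rnf40* kept their direction and their call under all 16 alternatives, with a highest adjusted p of 0.0237 for *Actb*, 0.00019 for *Actg1*, 8.02e-07 for *Acta2*, 2.88e-07 for *Actg2* and 0.000354 for *Acta1*. Leaving out 1 library at a time gave log2 fold changes of -0.50 to -0.41 for *Actb*, -0.92 to -0.84 for *Actg1*, -2.42 to -2.27 for *Acta2*, -3.95 to -3.77 for *Actg2* and -2.74 to -2.003 for *Acta1*. With no filter beyond 1 read *Actc1* was tested and called lower too (adjusted p = 0.0385, SE 1.36 on the log2 scale), which makes 6 actins lower. Without *Rnf40*+/+ replicate 1 the log2 difference of *Actc1* was -1.81 in place of -3.99, and it was not tested there. Over all genes, 3342 to 4196 were called lower and 3051 to 4021 higher.

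Samples with the same replicate number did not pair (correlations of 0.003 to 0.061 between their deviations). With the replicate number as a block, *Actb* had a log2 fold change of -0.45 (adjusted p = 0.00768) and *Acta1* one of -2.45 (adjusted p = 3.93e-09), 4196 genes were lower and 4021 higher, and no call of an actin changed.

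Shares of the actin pool moved by more than the spread between libraries when coding length, or no length, replaced mRNA length, because the 3′ UTRs differ in length. *Actb* was then at 40.5% and 40.42% in *Rnf40*+/+ and at 60.68% and 60.63% in *Rnf40*-/-, and *Actg1* at 21.96% and 21.92%, and at 24.65% and 24.63%. *Acta2* was at 35.07% and 35.19%, and at 14.16% and 14.23%, and *Actg2* at 1.478% and 1.479%, and at 0.2109% and 0.2113%. *Acta1* was at 0.2985% and 0.2998% in *Rnf40*-/-. No share changed its direction between genotypes.

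Of 288 list values under alternatives, 261 stayed within the limit set and 27 moved. *Mkl1* was also lower with TMM, with edgeR, with the block and without *Rnf40*+/+ replicate 3, which makes 2 genes of SRF and its cofactors lower. Without *Rnf40*-/- replicate 3, 1 gene of the monomer binding list was higher in place of 3. The value of *Actc1* in 1 library, *Rnf40*+/+ replicate 1, limits the statements on that gene, together with the few reads in the other 5.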

Other observations

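β-actin is often used as a reference in quantitative PCR and on western blots. A list of 14 genes commonly used as references, written after the data had been seen, was therefore looked up in the same fit. Of the 14, 7 were lower, 3 higher and 4 not called at a limma adjusted p under 0.05. *Actb*, which prompted the list, is among the 7. Of all genes tested, 24.1% were lower, 23.3% higher and 47.4% called in either direction. The log2 fold changes ran from -1.77 for *Ppia* (cyclophilin A) to 0.50 for *Hprt*. *Gapdh* had a log2 fold change of -0.79 (limma adjusted p = 6.87e-05), a larger fall than that of *Actb*. *Rplp0* (-0.19, limma adjusted p = 0.122), *Gusb* (-0.15, 0.133), *Tfrc* (0.12, 0.209) and *Hsp90ab1* (-0.14, 0.151) were not called. Several of these genes, *Gapdh* and *Ppia* among them, have processed copies elsewhere in the genome, so their counts are less certain.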
